A study of Sus scrofa with 8 samples.

Results

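TXNRD2, GSS and GLS2 encode a mitochondrial thioredoxin reductase, glutathione synthetase and a glutaminase. They are 3 of the 458 genes for which normalized counts of single pigs were deposited, and all 3 were found by their gene name. The RNA came from subcutaneous fat of the back. The pigs belonged to a pair of local Portuguese breeds, with 4 of the fatter Alentejano breed (AL) and 4 of the leaner Bísaro breed (BI), and each pig gave 1 stranded mRNA library. According to the methods, the pigs were purebred castrated males kept free range and fed commercial diets ad libitum, and AL pigs stayed on trial longer than BI pigs. A weight of 150 kg is called the carcass weight in the sample labels, whereas the methods give it as the weight at slaughter. The pigs are described as adult, with no age in the sources used here. A larger deposited table holds only the mean normalized count over the 8 pigs for 10710 genes. The genes with values per pig are those that the authors had called different between the breeds, so that the comparisons below describe how far the pigs lie apart and are not an independent test of the breeds.

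Thioredoxin and glutathione are the main thiol reductants of animal cells. Thioredoxin reductases use NADPH to keep thioredoxin reduced, and TXNRD2 does so in mitochondria, where thioredoxin serves the peroxiredoxins that remove hydrogen peroxide. GSS catalyses the last step of glutathione synthesis, the addition of glycine to gamma-glutamylcysteine, and glutathione is then used by glutathione peroxidases and transferases. GLS2 hydrolyses glutamine to glutamate in mitochondria, and glutamate is a building block of glutathione. In adipose tissue the NADPH that both systems consume is also the reductant of fatty acid synthesis.

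The gene for TXNRD2 (ENSSSCG00000010131) lies on the minus strand of chromosome 14 of Sscrofa11.1 from 51355731 to 51385096, with 18 exons in the RefSeq annotation. GSS (ENSSSCG00000007287) lies on the minus strand of chromosome 17 from 38316199 to 38342253 and has 13 exons. GLS2 (ENSSSCG00000000401), also on the minus strand, lies on chromosome 5 from 21806405 to 21820001 and has 18 exons over its 5 transcripts. TXNRD2 is a selenoprotein, in which selenocysteine is encoded by a TGA codon near the end of the coding sequence. The last 30 coding bases of TXNRD2, at chr14:51356831-51356860 on the minus strand, are shown because they hold this codon, which is in capitals and is codon 514 of 516.
TXNRD2 coding end: gaccccaccgtgacgggctgcTGAggctaa

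The starts of GSS and GLS2 share a layout. Each lies within 500 bp of the start of a gene on the opposite strand and overlaps with that gene, namely the non-coding LOC106506661 for GSS (15 bp between the starts) and RBMS2 for GLS2 (149 bp). Such an overlapping opposite-strand start was annotated for 3.79% of the 19549 protein-coding genes placed on chromosomes and for 8.03% of the 386 of them with values per pig. The sequence before both starts is shown because it lies inside the opposite-strand gene. Of the 250 bases before the start of GLS2, the 121 nearest to it lie in an exon of RBMS2 and are left out. Only exons of protein-coding transcripts were left out, so that part of the GSS sequence may lie in an exon of LOC106506661. The sequences are written 5′ to 3′ in the direction of the enzyme gene, from the minus strand of Sscrofa11.1, and cover chr17:38342254-38342503 for GSS and chr5:21820123-21820251 for GLS2. Capitals mark GC boxes, the letters GGGCGG on either strand, wherever they occur.
GSS: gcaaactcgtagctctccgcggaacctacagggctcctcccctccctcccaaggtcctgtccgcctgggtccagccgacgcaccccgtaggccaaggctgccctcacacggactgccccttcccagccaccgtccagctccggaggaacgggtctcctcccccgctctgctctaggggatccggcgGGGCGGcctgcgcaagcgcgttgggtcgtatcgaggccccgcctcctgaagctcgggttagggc
GLS2: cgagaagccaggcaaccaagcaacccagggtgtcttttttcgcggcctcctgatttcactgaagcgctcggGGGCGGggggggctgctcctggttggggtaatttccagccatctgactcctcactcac

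Over the 250 bases before each of the 3 starts the GC content was 68.8% for TXNRD2, 70% for GSS and 57.6% for GLS2. The GC box occurred 0 times in the window of TXNRD2, once in that of GSS and 2 times in that of GLS2, of which 1 lies in the stretch not shown, and at least once in 45.9% of the 19545 windows of the same length before protein-coding genes. Searched on both strands, the core of the antioxidant response element (TGACNNNGC), the sterol regulatory element (TCACNCCAC) and the CCAAT box (CCAAT) were found in none of the 3 windows, and in 9.96%, 0.803% and 31.9% of all windows, respectively. The motifs did not overlap with each other in these windows, and a match or its absence says nothing here about binding.

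**Figure D1:**
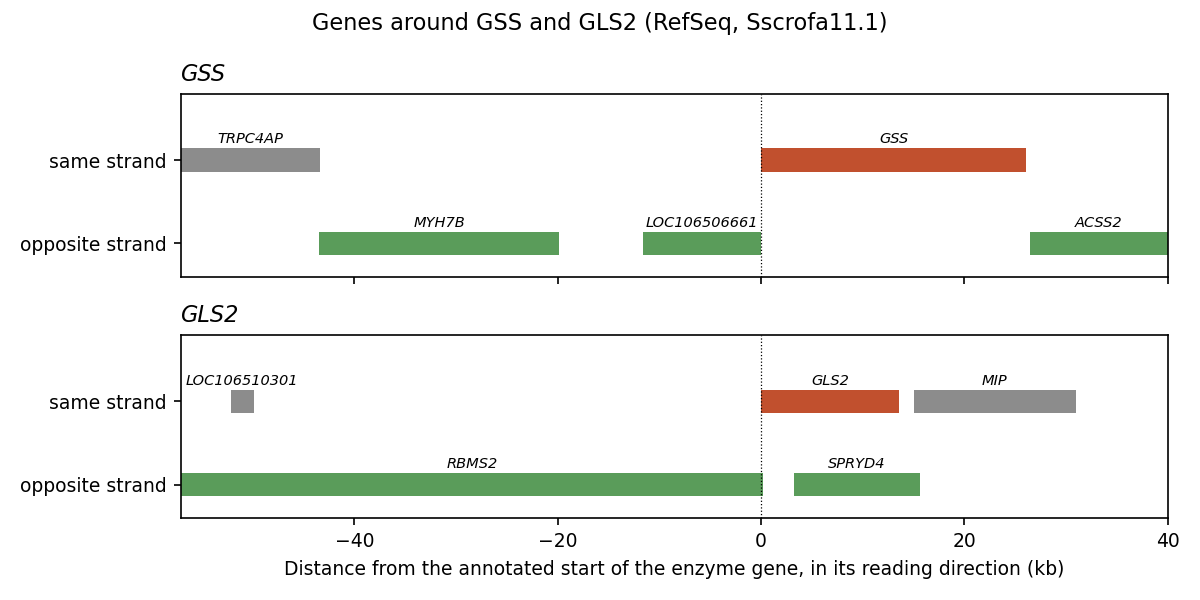
Genes around GSS and GLS2 in the RefSeq annotation of Sscrofa11.1, with the distance in kb from the annotated start of each enzyme gene on the x axis, in its reading direction, and the strand relative to it on the y axis. Red bars are the enzyme genes, grey bars other genes of the same strand and green bars genes of the opposite strand; the start of each enzyme gene overlaps with the start of an opposite-strand gene, RBMS2 by 150 bp at GLS2.

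Normalized counts are read counts divided by the DESeq2 size factor of the pig, and the log2 fold change (log2 FC) given here is the mean of log2(normalized count + 1) in AL minus that in BI. All 3 enzymes were higher in AL, and in each of them every AL pig exceeded every BI pig. Among the 458 genes, 48.3% did not overlap with AL higher and 79.5% did not overlap in either direction, so that a separation of the breeds is the usual state of these genes. The differences in size were wide, from 8.82-fold for TXNRD2 through 3.30-fold for GSS to 1.68-fold for GLS2, each computed from the log2 FC. By the size of the log2 FC they ranked 4, 65 and 436 among the 458 genes, whose median log2 FC was 1.09 over the 263 genes higher in AL.

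TXNRD2 had 284, 667, 713 and 764 normalized counts in AL replicates 44, 49, 52 and 63. In BI replicates 25, 34, 36 and 37 it had 32.9, 41.9, 125 and 93.3. The lowest AL pig, replicate 44, thus lay 2.28-fold above the highest BI pig, replicate 36. The mean was 607 ± 219 (SD, n = 4) in AL against 73.2 ± 43.5 (SD, n = 4) in BI. On the log2 scale the breeds differed by 3.14 (SE, the standard error, 0.56). The exact permutation test (two-sided), which compares all 70 ways of dividing the pigs, gave p = 0.029, the lowest p that this number of pigs can reach, and 0.036 after Benjamini-Hochberg adjustment over the 458 genes. The same p-values hold for GSS and GLS2. AL replicate 44 and BI replicates 25 and 34 were the low pigs of their breeds, and without any single pig the log2 FC stayed in the range of 2.83 to 3.47.

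Few reads stand behind some of these values. Reads were inferred from the common step of the values of a pig, and since some pigs hold few low values from which to check it, the reads, the size factors and the counting errors derived from them are estimates. In AL replicate 44 the value rests on 192 reads, whose 95% exact Poisson interval is 246 to 328 normalized counts, and in BI replicate 36 on 132 reads with an interval of 104 to 148. These intervals, which cover counting error only, do not touch. In AL the SD between pigs (219) exceeded the SD that counting alone would give, 27.0 normalized counts, and in BI it was 43.5 against 7.69. The position of TXNRD2 among the 458 genes of a pig does not depend on the scaling between pigs. Ranked from the most abundant gene, it took places 158, 110, 100 and 108 in the AL pigs and places 340, 307, 192 and 226 in the BI pigs, in the order of the replicates above, so that the breeds did not overlap in rank either.

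GSS had 187, 185, 151 and 454 normalized counts in AL replicates 44, 49, 52 and 63. In BI replicates 25, 34, 36 and 37 it had 65.0, 50.8, 78.4 and 74.2. The BI pigs lay close together, and AL replicate 63 lay far above the other 3 AL pigs. The means were 244 ± 141 (SD, n = 4) and 67.1 ± 12.2 (SD, n = 4), and the log2 FC was 1.72 (SE 0.38). Without AL replicate 63 the log2 FC was 1.37, the lowest value obtained by leaving out a pig, and the breeds still did not overlap. The lowest AL pig, replicate 52, exceeded the highest BI pig, replicate 36, by 1.92-fold, with 140 and 83 reads and intervals of 127 to 178 and 62.5 to 97.2 normalized counts. Within BI the SD of 12.2 was not far above the 7.36 expected from counting, whereas in AL it was 141 against 17.1. By rank, GSS took places 138 to 191 in the AL pigs and 243 to 280 in the BI pigs.

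GLS2 had the smallest difference, with 378, 303, 259 and 319 normalized counts in AL replicates 44, 49, 52 and 63. In BI replicates 25, 34, 36 and 37 it had 164, 160.0, 192 and 231. The lowest AL pig, replicate 52, and the highest BI pig, replicate 37, differed by 1.12-fold only, and their counting intervals, 227 to 294 and 204 to 260, overlapped. The means were 315 ± 49.1 (SD, n = 4) and 187 ± 32.6 (SD, n = 4), and the log2 FC was 0.75 (SE 0.16), with the smallest error of the 3 enzymes. AL replicate 44, the lowest AL pig for TXNRD2, was the highest AL pig for GLS2. In rank GLS2 overlapped between the breeds, with places 141 to 159 in AL and 157 to 179 in BI. After scaling of each pig to a common upper quartile of the 458 genes, the log2 FC of GLS2 fell to 0.11 and the breeds overlapped (two-sided exact permutation test, p = 0.43), and without AL replicate 44 or without AL replicate 63 the exact p was 0.057, although the breeds still did not overlap.

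**Figure D2:**
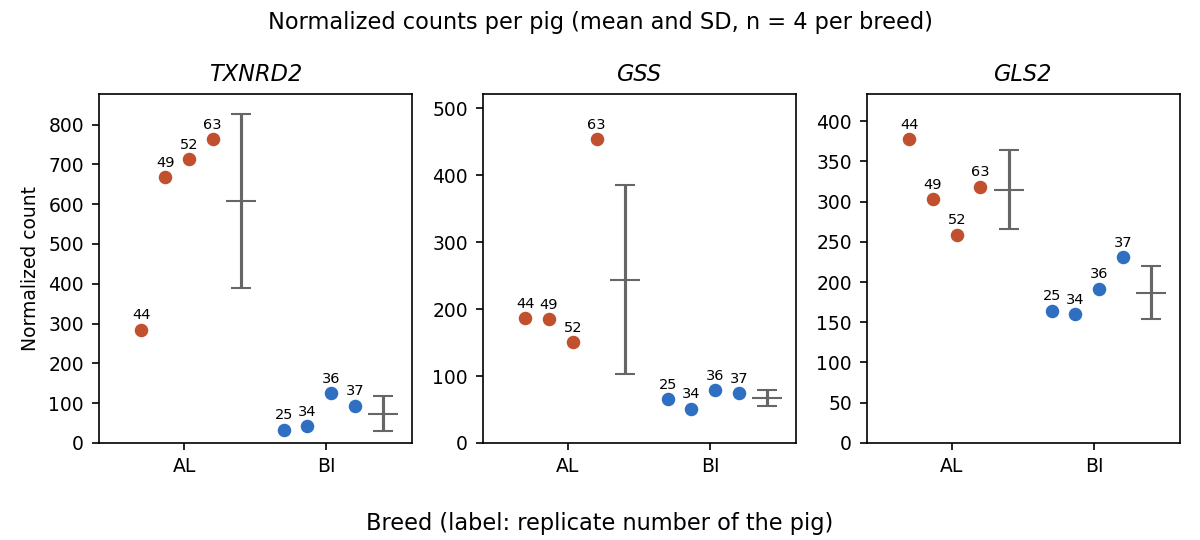
Normalized counts of TXNRD2, GSS and GLS2 in each pig, with the breed on the x axis and the normalized count, from 0, on the y axis; each point is 1 pig with its replicate number, and the grey mark beside the points is the mean with the SD (n = 4). All AL pigs lie above all BI pigs in each panel, with AL replicate 44 low for TXNRD2 (284) and AL replicate 63 high for GSS (454).

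Both rescalings tried rest on the 458 called genes and lower the median log2 FC of all of them, by 0.51 for the median of ratios, from 0.83 to 0.31, and by 0.65 for the upper quartile. TXNRD2 and GSS did not overlap under either rescaling. GLS2, with a log2 FC of 0.24, did not overlap under the median of ratios. The size factors themselves were between 0.675 and 1.10 in AL and between 1.06 and 1.46 in BI, and they overlapped between the breeds (two-sided exact permutation test, p = 0.057).

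Ratios within a pig, in which the scaling cancels, show whether the enzymes differed from each other in how far the breeds lay apart, and 3 ratios were tested. TXNRD2 amounted to 0.753, 2.20, 2.75 and 2.40 times the normalized count of GLS2 in AL replicates 44, 49, 52 and 63. In BI replicates 25, 34, 36 and 37 this ratio was 0.200, 0.262, 0.650 and 0.404. All AL pigs lay above all BI pigs, although AL replicate 44 lay close to BI replicate 36. The difference of the mean log2 ratio, AL minus BI, was 2.39 (SE 0.56, two-sided exact permutation test, p = 0.029), and p was 0.057 when any of the 4 BI pigs was left out, although the breeds still did not overlap.

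The ratio of GSS to GLS2 was 0.494, 0.611, 0.581 and 1.43 in AL replicates 44, 49, 52 and 63. It was between 0.318 and 0.409 in the BI pigs, so that the breeds did not overlap. The difference of the mean log2 ratio was 0.97 (SE 0.36), with p = 0.029 in the two-sided exact permutation test. It was 0.63 when AL replicate 63, the high pig of GSS, was left out, and the exact p was 0.057 when any of the 4 BI pigs was left out, again with no overlap. The ratio of TXNRD2 to GSS was between 1.52 and 4.74 in AL and between 0.506 and 1.59 in BI. Here BI replicate 36 lay above AL replicate 44, and the difference was 1.42 (SE 0.54, two-sided exact permutation test, p = 0.057), which misses the threshold of 0.05. In these pigs the breed differences of TXNRD2 and of GSS were thus each larger than that of GLS2, while for TXNRD2 against GSS the test missed its threshold. The p-values were not adjusted for the 3 ratios, and 0.029 is the lowest that these pigs can reach.

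**Figure D3:**
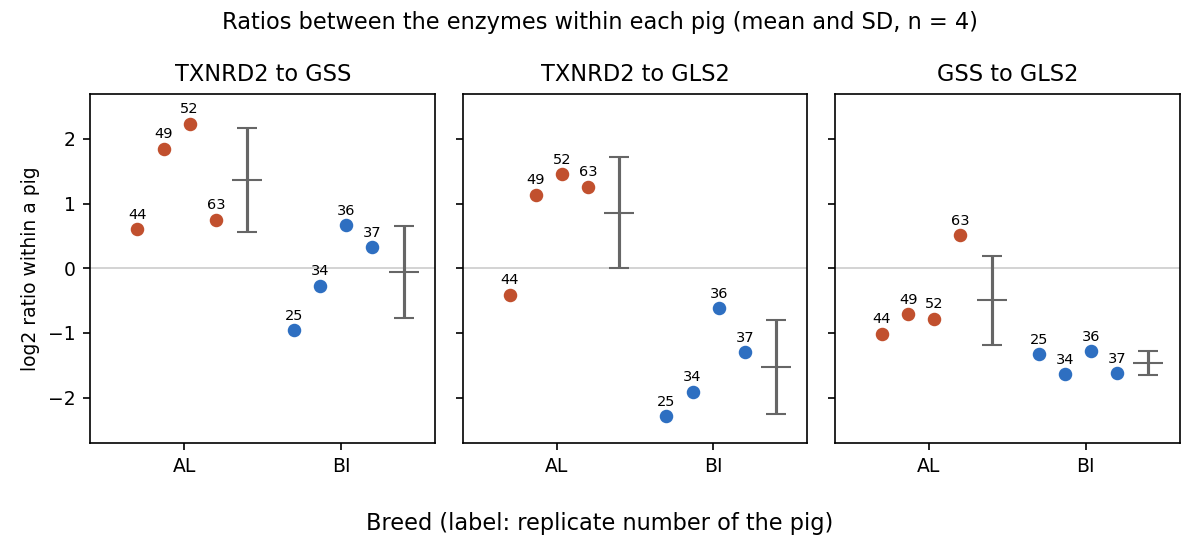
Ratios between the normalized counts of the enzymes within each pig on the log2 scale (y axis) by breed (x axis); each point is 1 pig with its replicate number, and the grey mark beside the points is the mean with the SD (n = 4). The breeds do not overlap for TXNRD2 to GLS2 and GSS to GLS2, and overlap for TXNRD2 to GSS, where BI replicate 36 lies above AL replicate 44.

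Levels of different genes are compared per kb of RefSeq exons. In AL the normalized count per kb was 327 ± 118 (SD, n = 4) for TXNRD2, 129 ± 74.5 for GSS and 101 ± 15.7 for GLS2. In BI GLS2 came first, with 59.7 ± 10.4, followed by TXNRD2 with 39.4 ± 23.4 and GSS with 35.4 ± 6.45. TXNRD2 thus had the highest level of the 3 in AL. GSS and GLS2 in AL differed by less than the SD of GSS, and TXNRD2 in BI differed from both other enzymes by less than its own SD.

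The enzymes also differed in which pigs were high within a breed. After the breed mean was subtracted from log2(normalized count + 1), the Pearson correlation over the 8 pigs, given as a description, was 0.40 between TXNRD2 and GSS, 0.36 between GSS and GLS2 and 0.13 between TXNRD2 and GLS2. By the same measure, the genes most like TXNRD2 among the 458 included FARS2 (0.97), the mitochondrial phenylalanyl-tRNA synthetase, and RPL7A (0.96), a ribosomal protein. The genes most like GSS were the unnamed ENSSSCG00000037660 (0.97), LOXL2 (0.93), a lysyl oxidase of the extracellular matrix, and CPSF7 (0.93), a factor of mRNA 3′ end processing. For GLS2 they were SERPINE3 (0.99), FKBP15 (0.98) and the transcription factor RFX1 (0.97), although RFX1 was higher in BI, with a log2 FC of −1.18. These are the highest of many values over 8 pigs, and these pairs share the libraries and their size factors.

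Other genes of these pathways were taken from 7 lists with 110 genes in all. Of these, 77 could be found by symbol among the 10710 genes with a mean count. Values per pig exist for 9 of the 77 (11.7%), beside 4.28% of the 10710 genes. The 3 enzymes are among these 9 and, being taken from the genes with values per pig, raise the count. The counts of the single lists below also stand beside the 4.28%. All 9 were higher in AL and did not overlap with BI, beside the 48.3% of the 458 genes that did so. For the list genes without values per pig no direction can be given.

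In the thioredoxin list, TXNRD2 was the only 1 of 13 genes with values per pig. Its cytosolic counterpart TXNRD1 has an authors' mean of 3.82 normalized counts per kb of exons, against 183 for TXNRD2. The mitochondrial partners TXN2, a thioredoxin, and PRDX3, a peroxiredoxin, have means of 5.41 and 7.80 normalized counts per kb. In the list of glutathione synthesis and recycling, GSS was the only 1 of 9 genes with values per pig. GCLM, the modifier subunit of the enzyme that makes gamma-glutamylcysteine, has a mean of 2.1 and GSR, the glutathione reductase, of 1.95 normalized counts per kb, against 82.2 for GSS. None of the 14 glutathione-using enzymes found, glutathione peroxidases and transferases among them, and none of the 5 genes of selenoprotein synthesis found has values per pig. In authors' mean per kb of exons, GSS stood above the other genes found of its list, and in the thioredoxin list PRDX2, a peroxiredoxin with 9743 normalized counts per kb, alone stood above TXNRD2. Genes with values per pig have higher means in general, with a median of 93.6 normalized counts against 13.7 over the 10710 genes. A level above list genes without values per pig is therefore not particular to these enzymes.

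Of the 18 genes found of the list of glutamine and glutamate enzymes and carriers, 3 have values per pig. SLC38A1, a sodium-coupled carrier of glutamine, had 34.1, 48.97, 23.7 and 33.2 normalized counts in AL replicates 44, 49, 52 and 63. In BI replicates 25, 34, 36 and 37 it had 4.59, 7.56, 18.0 and 11.7, and its log2 FC was 1.75 (SE 0.43). GOT2, the mitochondrial aspartate aminotransferase, which interconverts glutamate and aspartate, had between 19.0 and 29.0 normalized counts in AL and between 7.65 and 10.99 in BI, and this amounts to a log2 FC of 1.31 (SE 0.18). Neither gene overlapped between the breeds, and both were at low counts.

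Of the 12 genes of NADPH supply, ME1, TKT and TALDO1 have values per pig. ME1, the cytosolic malic enzyme, which reduces NADP, had 63.1 ± 12.5 (SD, n = 4) normalized counts in AL against 15.1 ± 6.98 (SD, n = 4) in BI, and this amounts to a log2 FC of 2.05 (SE 0.31). The pentose phosphate enzymes TKT and TALDO1 had log2 FC of 0.84 and 0.91 (SEs 0.22 and 0.28). Of the 6 genes found of the superoxide and peroxide list, NOXA1, an activator of NADPH oxidase, had 834 ± 300 (SD, n = 4) normalized counts in AL against 184 ± 77.9 (SD, n = 4) in BI, and this amounts to a log2 FC of 2.19 (SE 0.48). As with TXNRD2, AL replicate 44 was the lowest AL pig for ME1, NOXA1, TKT and TALDO1.

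**Figure D4:**
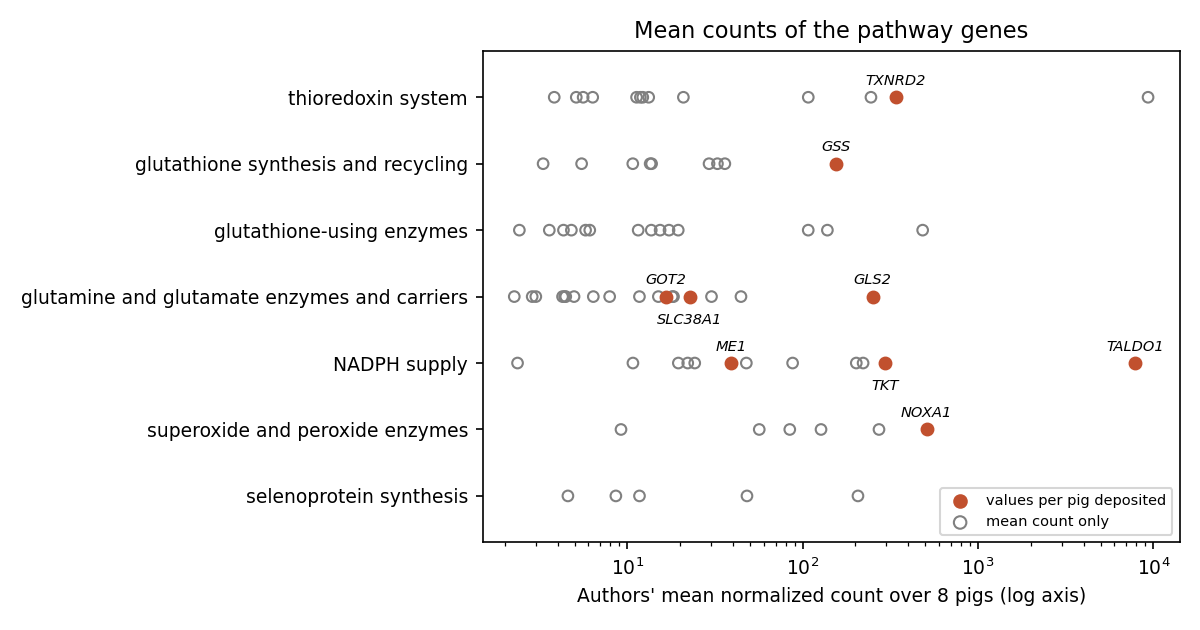
Authors' mean normalized count over the 8 pigs (x axis, log scale, not divided by gene length) of the genes found of 7 pathway lists (y axis); each point is 1 gene. The 9 red points are the genes with values per pig, all of them higher in AL, and the open points are the genes with a mean count only.

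The neighbours of the enzyme genes were compared within 100 kb, and 1 of them, ARVCF, has values per pig. ARVCF (ENSSSCG00000010133), a catenin of cell junctions, lies on the strand of TXNRD2. It had 1924, 3804, 4159 and 2854 normalized counts in AL replicates 44, 49, 52 and 63. In BI replicates 25, 34, 36 and 37 it had 284, 616, 875 and 952. As for TXNRD2, AL replicate 44 and BI replicate 25 were the lowest pigs, and the breeds did not overlap. The log2 FC of ARVCF was 2.30 (SE 0.47, two-sided exact permutation test, p = 0.029), and its correlation with TXNRD2 after subtraction of the breed means was 0.86 over the 8 pigs. The log2 ratio of TXNRD2 to ARVCF within a pig was higher in AL by 0.84 (two-sided exact permutation test, p = 0.029).

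Exons of SPRYD4 and RBMS2 cover 15.5% of the exon bases of GLS2, and those of LOC106506661 cover 0.845% of GSS. The 3′ end of ACSS2, an acetyl-CoA synthetase gene on the opposite strand, lies 435 bp from that of GSS, and the mean of ACSS2 is 18.4 normalized counts. The libraries kept the strand, but the strand setting of the counting is not given in the sources used here, so that reads from an enzyme gene and from a gene on the opposite strand cannot be told apart. The part of such reads in the 3 differences was not tested.

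The labelled tissue was checked against adipocyte markers, 7 of 8 of which are listed in the larger table, from 10.9 normalized counts for PPARG to 1567 for PLIN1, while CIDEA was not found. FABP4 and LEP, the 2 adipocyte markers with values per pig, summed to 907 to 1226 normalized counts in AL and to 402 to 665 in BI. FABP4 makes up most of this sum and did not overlap, whereas LEP overlapped, with 44.4 to 181 in AL and 24.2 to 86.0 in BI. Of 8 skeletal muscle markers, 3 were found by symbol among the genes with a mean count. CKM has 987 normalized counts, whereas the means of ACTA1 and TNNT3 lie below the median of the larger table. MYH7, which was not among these 3, has values per pig, from 0.907 to 9.30 in AL and from 4.72 to 40.5 in BI. CLEC14A and EGFL7, 2 of 5 endothelial markers, summed to between 2172 and 3629 in AL and between 1337 and 1956 in BI, with CLEC14A lower and EGFL7 higher in AL. The markers of macrophages, fibroblasts, liver and blood have no values per pig. The part of these markers in the differences of the enzymes was not tested. In bulk tissue, fewer cells of a type and less RNA per cell cannot be told apart.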

How the data were processed

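According to the paper's methods and the processing notes of the submitters, reads were trimmed with Trim Galore 0.5.0, aligned to Sscrofa11.1 with HISAT2 2.1.0, handled with SAMtools 1.9, counted per gene with HTSeq-count 0.11.1 and compared with DESeq2. For 458 genes that the authors called, the deposited signal per pig is a normalized count, that is, reads after division by size factors from DESeq2. A second deposited signal is the mean of these values over the 8 pigs, given for 10710 genes, of which 8923 (83.3%) were paired with a symbol by gene ID. Both tables also hold the authors' fold changes, standard errors and p-values, which were not used.

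Within each pig, 100% of the values were whole multiples of a single step (tolerance 0.02 of the step), from which size factors and reads were obtained. Between 359708 and 883622 reads per pig lay on the 458 genes. The log2 FC was computed with a pseudocount of 1 and tested by two-sided exact permutation. Genes named are the 3 enzymes, list members with values per pig, such genes within 100 kb of an enzyme, and the 3 genes most like each enzyme; partners on the opposite strand, list members without values per pig and markers were named after their values were seen. The enzymes, lists and motifs were chosen with earlier results of these data known. Positions and sequences are those of the RefSeq annotation of Sscrofa11.1, whereas the authors counted on Ensembl models, which were not used here. Some genes that the rule for names would take, and values that need them, are not reported here. The calculations were tested on simulated data. Alternatives were other pseudocounts, scalings and measures, a low-count limit of 50, limma and leaving out each pig. Python 3.11.15, NumPy 2.4.6, pandas 2.3.3, SciPy 1.17.1, Matplotlib 3.10.9, R 4.3.3 and limma 3.58.1 were used.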

Additional observations from a re-analysis of the deposited data

Results flagged for a closer look

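The gap of a pig to the nearest other pig, divided by the range of the group, was compared with Dixon's critical value for 4 samples. Among 38 groups of 4 pigs, 1 per gene with values per pig named above and breed, 5 held a pig past it. Markers were left out. Chance alone exceeds this value in about 5% of groups. The count of 5 cannot be set against that percentage, because the groups include genes picked for following an enzyme over the same pigs. GSS in AL was 1 of the 5 groups, with 454 normalized counts in AL replicate 63 and a gap of 0.881 of the range. AL replicate 63 was also far above the other AL pigs for LOXL2, 110.2 normalized counts, 1 of the genes most like GSS. LOXL2 was picked because it follows GSS over these pigs, so its high value in AL replicate 63 is not a second observation. AL replicate 44 lay far below the other AL pigs for ME1, with 44.4, and for NOXA1, with 387 normalized counts. BI replicate 36 lay far above the other BI pigs for ME1, with 25.5 normalized counts. TXNRD2 in AL replicate 44, with a gap of 0.799 of the range, did not exceed the critical value.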

How the results depend on the processing

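The log2 FC of the 3 enzymes kept its sign under every alternative run. Taking the difference of the breed medians gave 3.44 for TXNRD2, 1.41 for GSS and 0.80 for GLS2, each with an exact permutation p of 0.057, and the upper quartile gave 0.11 for GLS2; the other pseudocounts and scalings, the ratio of means and limma (adjusted p 0.0028, 0.0041 and 0.012) kept each enzyme on its side of the threshold of 0.05. Leaving out each pig gave 2.83 to 3.47 for TXNRD2, 1.37 to 1.9 for GSS and 0.66 to 0.86 for GLS2, whose exact permutation p was 0.057 without AL replicate 44 or 63. For the log2 ratios, AL minus BI, it gave 2.14 to 2.81 for TXNRD2 to GLS2, 0.63 to 1.14 for GSS to GLS2 and 1.12 to 1.67 for TXNRD2 to GSS. The count of genes whose breeds do not overlap was 236 with the upper quartile in place of 364, and 368 to 411 without 1 pig. A planned test of counts on the recovered reads was not run, since some pigs hold too few low values for the recovery to be accepted. No paired analysis was possible because the breeds share no replicate number. The cause of these changes was not tested, and 4 pigs per breed limit what can be told apart.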

Other observations

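GPX3, a secreted glutathione peroxidase on the pathway lists, has an authors' mean of 483 normalized counts, and TNIP1, on the opposite strand at a distance of 498 bp, has 95238. PRDX2, a cytosolic peroxiredoxin with a mean of 9324 normalized counts, overlaps by 589 bp with RNASEH2A on the opposite strand, which has 1407. Both pairs were chosen after their values were seen, and neither gene of the lists has values per pig. RNASEH2A, the partner of PRDX2, does have values per pig, and its log2 FC was positive, that is, higher in AL.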
